A study of Mus musculus with 6 samples.

Results

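Wounded mouse corneas treated with RNase III were compared with unwounded corneas, to describe across all genes which changes remained under the enzyme. Genes entered the comparison by a level rule, at least 1 TPM (the share of reads of a gene, corrected for transcript length and scaled to the same total in each library) in at least 2 of the 4 libraries, which 14251 of 54446 gene rows met. Both groups were wild-type C57BL/6 mice aged 6 weeks, with 2 corneal RNA libraries each (labelled replicates 1 and 2), and 2 libraries of wounded corneas without the enzyme entered the same fit. The wound took away part of the limbus, the epithelium and some stroma, and RNase III was injected under the conjunctiva. The labels used here do not say whether the 2 libraries of a group came from separate animals, how long after wounding the tissue was taken, or whether the other groups had a control injection. The p-values therefore measure the spread between these libraries, which may be technical.

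RNase III is an endonuclease that cuts double-stranded RNA. Such RNA, from damaged or infected cells, is sensed by Toll-like receptor 3 in endosomes and by RIG-I-like receptors in the cytosol, which switch on interferon-beta and, through it, interferon-stimulated genes. The cornea is a layered, normally avascular tissue: a stratified epithelium renewed from the limbus, a collagen stroma kept by keratocytes, and an inner endothelium. After injury, keratinocyte-like epithelial cells move over the bare area, neutrophils and monocytes enter, and keratocytes near the wound are lost or become repair fibroblasts. The series title names an interferon-beta and Mmp13 axis in this repair.

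The libraries differed in how much they detected. Between 16751 and 21033 genes were above 0 TPM per library, with the lowest number in RNase III replicate 1 and 19455 in RNase III replicate 2, and the 10 most abundant genes took 10.3% to 15.8% of the TPM. TPM values keep no read depth, so no counting error can be given. Across all genes tested, Pearson's r on the log scale was 0.948 between the RNase III libraries and 0.971 between the unwounded libraries. Epithelial identity was present in each library, since Krt12, the keratin that defines corneal epithelium, lay at 19636 and 18778 TPM in unwounded and 17347 and 11259 TPM under RNase III. The RNase III libraries stood apart from each other in their content of other eye tissues, which is given beside the results it touches.

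After wounding with RNase III, 798 genes rose and 833 fell against unwounded corneas at an adjusted p under 0.05 (limma on log2(TPM + 1), Benjamini-Hochberg over all genes tested). These are 5.6% and 5.85% of the genes tested. Differences below are RNase III minus unwounded on the log2(TPM + 1) scale, with the limma standard error and n = 2 per group. That scale understates the change of genes at low TPM. The median rise among called genes was 1.5 and the median fall -1.62, and 234 rises and 224 falls were more than 4-fold. The median over all genes was -0.17, against which RNase III list medians below are to be read. For the wounded medians given beside them, the all-gene median was -0.28. For RNase III minus wounded it was 0.11. Both RNase III libraries lay above both unwounded libraries for 26.5% of genes and below them for 40.3%, and each called gene was among these. A gene under 1 TPM in both libraries of 1 group could enter only with both values of the other group higher. Without unwounded replicate 1 the fit called 24 rises and 5 falls, and without unwounded replicate 2 it called 26 and 7. The median difference of the 798 rises was then 1.48 and 1.51. Their direction could not change there, since the libraries of called genes do not overlap. The rises were 410 without RNase III replicate 2, and the falls 250 without RNase III replicate 1. With libraries rescaled by median-of-ratios factors, the rises were 1321 and the falls 924, so 58.8% of calls were rises in place of 48.9%. The all-gene median against unwounded then moved to -0.02 with RNase III and to -0.03 in wounded corneas without enzyme.

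**Figure D1:**
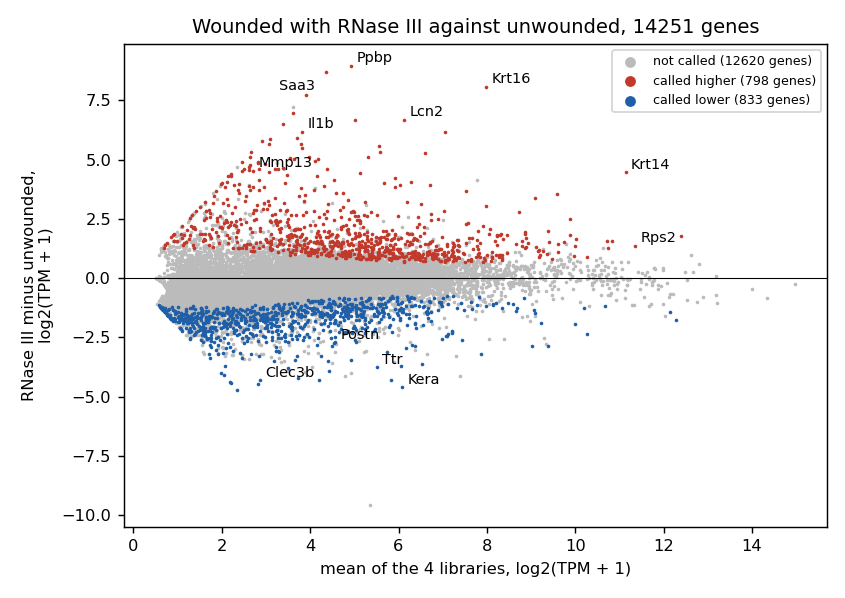
Mean level of each of 14251 genes over the 4 libraries (x axis, log2(TPM + 1)) against the RNase III minus unwounded difference (y axis, log2(TPM + 1)), 1 point per gene. Red marks the 798 genes called higher and blue the 833 called lower by limma; Krt14 and Krt16 are high in level and in difference, while Kera, a stromal gene, lies among the deepest falls.

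In the main fit, of the changes called after wounding alone, a larger share of the rises than of the falls was also called with the enzyme. Wounded corneas without RNase III, set against the same unwounded libraries, had 922 genes higher and 1561 lower, which is 6.47% and 11.0% of the genes tested. Of these, 570 of the rises (61.8%) and 511 of the falls (32.7%) were called in the same direction with RNase III, and no gene was called in opposite directions. The shared genes made up 71.4% of the RNase III rises and 61.3% of the RNase III falls. The pair of comparisons shares its control libraries, so this count is a description. Its split by direction was counted in the main fit alone. Under median-of-ratios scaling 1458 calls were shared in place of 1081. The wounded counts became 1574 and 1103 under median-of-ratios scaling (58.8% of calls higher in place of 37.1%), 66 and 45 without wounded replicate 1, and 22 or 23 rises and 3 or 4 falls without an unwounded library. The shared calls, 1081 in all, were then 105 without wounded replicate 1, 19 or 22 without an unwounded library and 680 without RNase III replicate 2. Among genes that fell in wounded corneas the median difference was -1.40 without and -0.96 with the enzyme, and among those that rose it was 1.45 and 1.38. These genes were chosen by their wounded values. Among genes chosen by their RNase III calls the medians were -1.39 without and -1.62 with the enzyme for falls, and 1.2 and 1.5 for rises. Set directly against wounded corneas, no gene passed the threshold in either direction (0.0% higher and 0.0% lower; smallest limma adjusted p 0.108), while 1156 genes were higher and 620 lower at an unadjusted p under 0.05. Both RNase III libraries lay above both wounded libraries for 26.8% of genes and below them for 13.4%. With a pseudocount of 0.1, 1 gene was called lower than in wounded corneas.

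**Figure D2:**
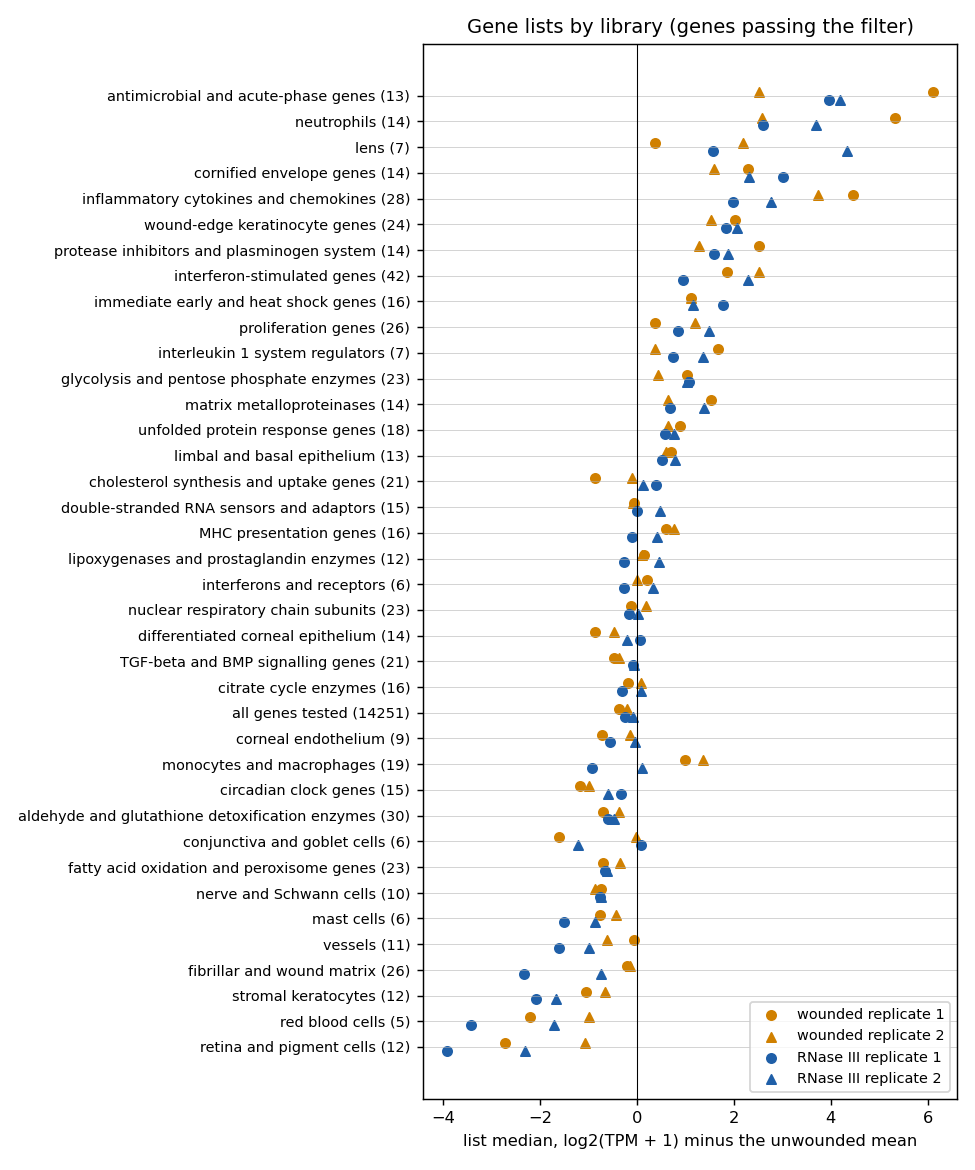
Median over each gene list (number of genes passing the filter in brackets) in each wounded library, as log2(TPM + 1) minus the unwounded mean (x axis). Blue marks RNase III and orange wounded without enzyme, with circles for replicate 1 and triangles for replicate 2. Antimicrobial, neutrophil and cytokine lists lie high in both groups. With RNase III the lens list is highest in replicate 2 (4.34). In replicate 1 the cornified envelope list (3.01) lies above the neutrophil (2.59) and cytokine (1.97) lists. The fibrillar matrix list reaches -2.34 and -0.75 with RNase III against -0.20 and -0.15 without.

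The genes of the named axis gave a rise of Mmp13 and no measurable interferon-beta. All 6 libraries list Ifnb1, which encodes interferon-beta, at 0 TPM. The collagenase gene Mmp13 (chr9:7272514-7283331, GRCm38) was at 0.39 and 0.32 TPM in unwounded and 27.9 and 33.2 TPM under RNase III, so the groups did not overlap. It rose by 4.54 ± 0.55 (adjusted p = 0.0122). In wounded corneas without enzyme it was at 118 and 32.5 TPM, and the RNase III minus wounded difference was -1.01 (adjusted p = 0.487). Tlr3, the endosomal receptor for double-stranded RNA, was at 13.0 and 7.59 TPM in unwounded and 23.7 and 12.6 TPM under RNase III, which overlap, with a difference of 0.74 ± 0.42 (adjusted p = 0.24).

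None of the 15 measured genes for double-stranded RNA sensors and adaptors passed the test with RNase III, and their median was 0.35. In wounded corneas 1 was higher and 2 were lower. Trim25, a ubiquitin ligase that activates RIG-I, was at 36.1 and 63.8 TPM against 50.3 and 51.3 TPM in unwounded corneas. Among the 6 interferon and receptor genes that passed the filter, Ifngr1, a chain of the interferon-gamma receptor, was the single call. It rose by 1.49 ± 0.28 (adjusted p = 0.0285), and its partner chain Ifngr2 had a difference of -0.56 (adjusted p = 0.121).

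Part of the interferon-stimulated genes rose with RNase III, and the libraries differed in how far. Of 42 that passed the filter 14 rose and none fell, with a median of 1.48, and in wounded corneas 24 rose and 1 fell, with a median of 2.18. Zbp1, a sensor of left-handed nucleic acid that can start cell death, was at 9.14 and 7.31 TPM in unwounded and 37.0 and 215 TPM under RNase III. It rose by 3.30 ± 0.76 (adjusted p = 0.0428). Oas2 and Oas1a make the 2′-5′ oligoadenylates of the antiviral response. Oas2 rose by 2.91 ± 0.71 (adjusted p = 0.0471), from 1.75 and 2.25 TPM to 9.21 and 48.1 TPM. Oas1a rose by 2.83 ± 0.64 (adjusted p = 0.0411), from 6.42 and 7.32 TPM to 25.3 and 118 TPM. Usp18, which removes ISG15 from proteins and damps interferon signalling, rose by 2.82 ± 0.52 (adjusted p = 0.0284), from 5.77 and 4.97 TPM to 25.3 and 76.0 TPM. After wounding alone Zbp1 was at 96.6 and 197 TPM, Oas2 at 21.5 and 42.5 TPM, Oas1a at 65.8 and 100 TPM and Usp18 at 46.2 and 85.2 TPM. RNase III replicate 1 was below both of these values for all 4 genes, and RNase III replicate 2 was above both for Zbp1, Oas2 and Oas1a and between them for Usp18. The list's median over the unwounded mean was 0.94 in replicate 1 and 2.29 in replicate 2. The 14 calls became 24 without RNase III replicate 1, 7 without RNase III replicate 2, 7 without either wounded library and 0 without either unwounded library.

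**Figure D3:**
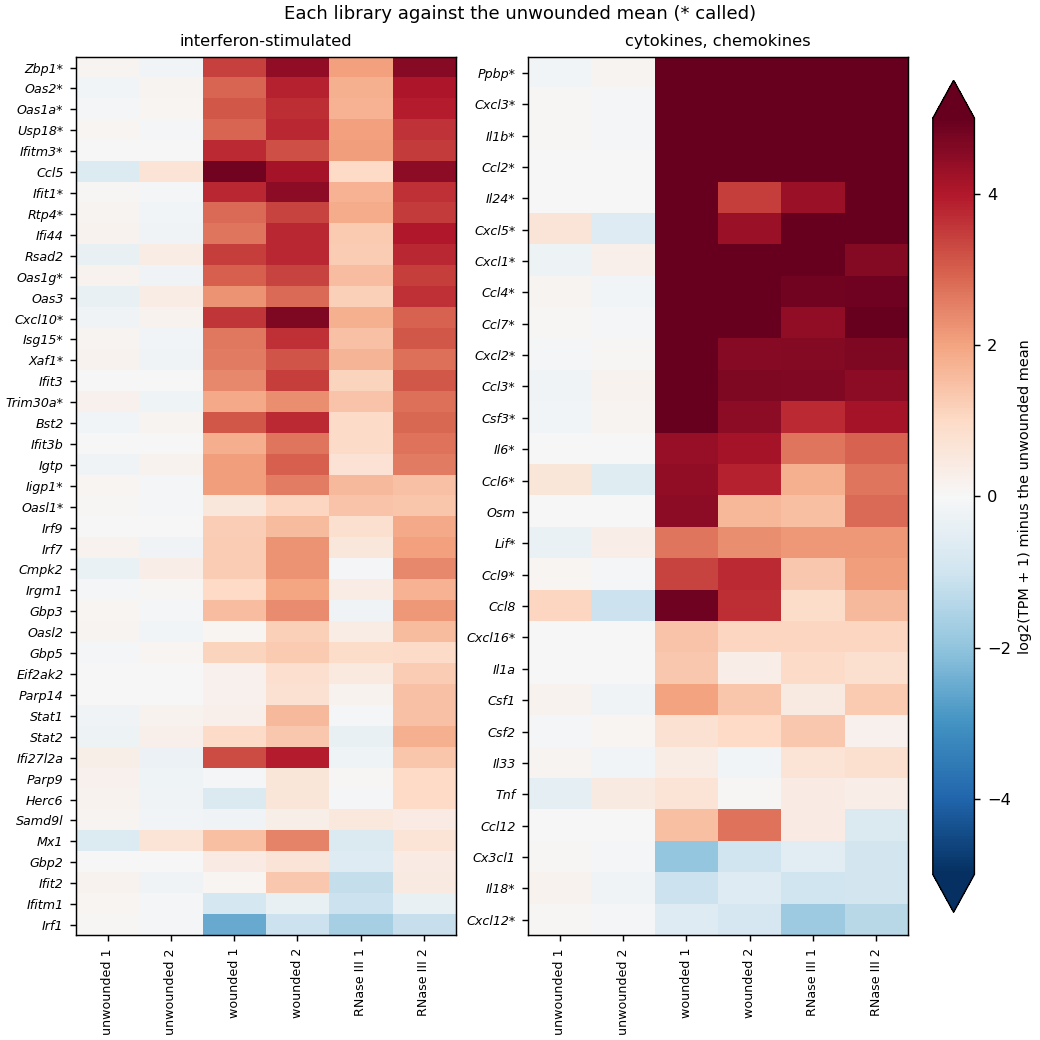
Heat maps of interferon-stimulated genes (left, 42 genes) and cytokines and chemokines (right, 28 genes) in each of the 6 libraries, as log2(TPM + 1) minus the unwounded mean, with colour saturating at 5 in either direction and an asterisk on genes called in RNase III against unwounded. In the left panel RNase III replicate 1 has a lower list median (0.94) than replicate 2 (2.29) and than both wounded libraries (1.86 and 2.52); in the right panel Ppbp and Cxcl3 are saturated in all 4 wounded libraries.

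Promoter windows of the called genes were searched for GAAANNGAA, the core of the interferon-stimulated response element that interferon-activated factors are known to bind, on both strands in the 250 bases before the RefSeq start (build GRCm38.p6). The table holds 10 promoters of 9 of the 14 called genes. The motif was found in 6 of the 10, a share of 60.0% beside 7.13% of all 32851 promoters of the table and 6.19% of those of genes tested. The 3 genes with the largest rise that held it are shown 5′ to 3′ on the gene's strand, with matches in capitals. Oas1a lies on the minus strand at chr5:120907526-120907775, Ifit1 on the plus strand at chr19:34640639-34640888 and Oas1g on the minus strand at chr5:120887614-120887863.
Oas1a: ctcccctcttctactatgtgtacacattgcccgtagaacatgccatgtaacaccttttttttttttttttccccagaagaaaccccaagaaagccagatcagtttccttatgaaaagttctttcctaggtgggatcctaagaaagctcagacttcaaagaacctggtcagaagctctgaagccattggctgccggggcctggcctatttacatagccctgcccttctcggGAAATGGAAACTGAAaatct
Ifit1: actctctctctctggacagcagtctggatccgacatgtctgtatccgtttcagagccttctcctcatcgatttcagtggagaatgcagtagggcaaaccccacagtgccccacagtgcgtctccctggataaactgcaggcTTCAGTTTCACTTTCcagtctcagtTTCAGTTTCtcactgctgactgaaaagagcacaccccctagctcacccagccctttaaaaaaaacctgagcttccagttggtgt
Oas1g: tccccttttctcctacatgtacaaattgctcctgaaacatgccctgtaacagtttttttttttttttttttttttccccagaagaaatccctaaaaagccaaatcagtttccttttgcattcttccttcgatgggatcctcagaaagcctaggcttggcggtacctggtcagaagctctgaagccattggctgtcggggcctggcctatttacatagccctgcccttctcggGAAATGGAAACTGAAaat
Oas1a and Oas1g are neighbours and close copies with the same run of 2 overlapping matches, so reads may be split between them. Ifit1, which binds viral RNA lacking cap methylation, holds 3 matches on the opposite strand, 2 of them overlapping. Its TPM was 7.14 and 6.57 in unwounded and 25.2 and 96.9 in RNase III corneas, a rise of 2.69 ± 0.58 (adjusted p = 0.0374). A match describes the letters of the window and says nothing of binding.

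Chemokines that draw neutrophils and monocytes were among the largest rises under the enzyme. Of 28 cytokines and chemokines that passed the filter 17 rose and 2 fell (Il18 and Cxcl12), with a median of 2.21. In wounded corneas 20 rose and 2 fell, with a median of 4.19, and 13 of the 28 were below both wounded values in RNase III replicates 1 and 2, beside 13.4% of all genes. Ppbp, the precursor of platelet chemokine CXCL7 (chr5:90768518-90770063), had the largest rise of all called genes. It went from 0.23 and 0.52 TPM to 1056 and 431 TPM, a difference of 8.95 ± 0.44 (adjusted p = 0.00133), and wounded corneas were at 980 and 595 TPM. Cxcl3, another ligand of the neutrophil receptor CXCR2, went from 0.06 and 0 TPM to 223 and 213 TPM, a difference of 7.73 ± 0.44 (adjusted p = 0.00176). Il1b, the inflammatory interleukin-1 beta, rose by 6.18 ± 0.81 (adjusted p = 0.0144), from 0.74 and 0.58 TPM to 77.4 and 184 TPM. It was at 1009 and 164 TPM in the wounded libraries, which differ more from each other than the RNase III libraries do. Ccl2, which draws monocytes through CCR2, rose by 5.66 ± 0.35 (adjusted p = 0.00177), from 0.98 and 0.93 TPM to 77.7 and 124 TPM. Both RNase III values of Ccl2 lay under both wounded values, 234 and 437 TPM, with a difference of -1.70 (adjusted p = 0.294). Without RNase III replicate 1 the list had 11 rises, without RNase III replicate 2 it had 10, and without either unwounded library it had 5.

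A kappa B form, GGANTTTCC, which NF-kappa B is known to bind, was searched in the same windows. It was present in 4 of 10 promoters that matched the 17 called cytokines and chemokines, or 40.0%, beside 1.07% of all promoters. TGANTCA, the AP-1 site, was present in 4 of the same 10, beside 6.75% of all promoters, and in 3 of the 10 interferon-stimulated promoters. The kappa B form matched in 2 of the 10 interferon-stimulated promoters, and GAAANNGAA in 1 of the 10 cytokine and chemokine promoters. The genes with the largest rise that held the kappa B form were Cxcl3 at chr5:90785851-90786100 and Cxcl1 at chr5:90890995-90891244, both on the plus strand, and their windows are shown with the match in capitals.
Cxcl3: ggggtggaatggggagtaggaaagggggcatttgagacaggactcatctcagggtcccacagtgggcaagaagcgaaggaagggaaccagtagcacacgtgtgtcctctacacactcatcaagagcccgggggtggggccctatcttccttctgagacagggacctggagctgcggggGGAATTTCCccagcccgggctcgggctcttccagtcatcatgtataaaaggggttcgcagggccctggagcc
Cxcl1: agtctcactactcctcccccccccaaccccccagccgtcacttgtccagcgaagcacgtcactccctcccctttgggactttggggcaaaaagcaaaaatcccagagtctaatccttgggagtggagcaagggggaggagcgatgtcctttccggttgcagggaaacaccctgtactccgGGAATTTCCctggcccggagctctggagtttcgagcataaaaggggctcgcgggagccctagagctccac
Each match begins about as far from the start, at base -72 in Cxcl3 and -70 in Cxcl1. Cxcl1, the mouse ligand also called KC, went from 1.63 and 2.76 TPM to 122 and 74.2 TPM, a rise of 4.93 ± 0.38 (adjusted p = 0.00366).

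Receptor genes of the interleukin-1 family were called too. Of 7 measured regulators 2 rose and none fell. Il1rl1, the receptor for interleukin-33, went from 0.17 and 0.12 TPM to 22.3 and 28.6 TPM, a rise of 4.52 ± 0.52 (adjusted p = 0.0108). Il1rap, the shared accessory chain, rose by 1.82 ± 0.33 (adjusted p = 0.0278).

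Of 14 neutrophil markers that passed the filter 4 rose under RNase III and none fell, with a median of 3.15. All 14 were above both unwounded values in RNase III replicates 1 and 2, beside 26.5% of all genes. Some of them, such as Clec4d (0.59 and 0.33 TPM), Clec4e and Csf3r, were under 1 TPM in both unwounded libraries. Such a marker passes the filter only with both RNase III values higher, so its position follows from the filter. The calls numbered 11 without either wounded library, 2 without either RNase III library and 0 without either unwounded library. Summed over the 19 markers in the table, TPM was 145 and 95.0 in unwounded corneas, 9580 and 638 after wounding alone and 1585 and 1611 under RNase III. The RNase III sums thus lay between the wounded ones. S100a8, a calcium-binding alarmin abundant in neutrophils, rose by 6.65 ± 1.20 (adjusted p = 0.027), from 4.27 and 0.98 TPM to 287 and 364 TPM. Clec4d and Clec4e, lectin receptors of myeloid cells, rose by 4.6 ± 0.82 (adjusted p = 0.0267) and 4.07 ± 0.61 (adjusted p = 0.0196), and Csf3r, the receptor for granulocyte growth factor, by 3.18 ± 0.67 (adjusted p = 0.0357). The granule genes Mpo and Elane, made in bone marrow precursors, were listed at 0 in all 6 libraries. In bulk tissue, fewer cells of a type and less RNA per cell cannot be told apart.

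Monocyte and macrophage genes showed a mixed picture with RNase III. Of 19 that passed the filter 3 rose and 1 fell, with a median of -0.30, whereas in wounded corneas 8 rose and 1 fell, with a median of 1.14. Both RNase III libraries were below both wounded libraries for 13 of the 19, beside 13.4% of all genes. The RNase III median took the opposite sign without unwounded replicate 1 (0.17) or without RNase III replicate 1 (0.09). Cd14, a co-receptor for bacterial lipopolysaccharide, rose by 4.16 ± 0.89 (adjusted p = 0.0367), Arg1, the arginine-degrading enzyme, by 1.86 ± 0.28 (adjusted p = 0.0195), and the lysosomal glycoprotein gene Cd68 by 1.68 ± 0.37 (adjusted p = 0.0382). Itgam, the integrin CD11b, fell by 1.44 ± 0.22 (adjusted p = 0.0219), and fell in wounded corneas as well (by 2.05, adjusted p = 0.00765).

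A group of 51 genes was called higher in wounded corneas and differed by less than 0.5 from unwounded with RNase III. The 6 with the largest wound rise are given here. Clec4a2, Clec4a3 and Clec4a1 are lectins of myeloid and dendritic cells and close relatives in 1 cluster. Clec4a2 was at 4.39 and 0.86 TPM in unwounded corneas, at 20.2 and 10.1 TPM after wounding alone and at 1.47 and 2.26 TPM under RNase III. Ccr2, the receptor for CCL2 on inflammatory monocytes, was at 1.64 and 0.85, then 20.2 and 10.7, then 0.35 and 4.45 TPM in the same order. Pf4, platelet factor 4, was at 11.7 and 10.3, then 101 and 54.8, then 8.92 and 15.6 TPM. For each of these the RNase III libraries lay under both wounded libraries, and the differences from wounded corneas were -2.43, -2.54 and -2.56 with adjusted p of 0.294, 0.301 and 0.211. Clec4a3 (-2.14), Clec4a1 (-2.12) and Alox5ap (-2.44), the activator of 5-lipoxygenase, had adjusted p of 0.276, 0.294 and 0.294. The 6 were chosen for a large wound rise and a small RNase III difference, so these negative differences follow from the choice. None of the 6 passed the test of the difference.

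**Figure D4:**
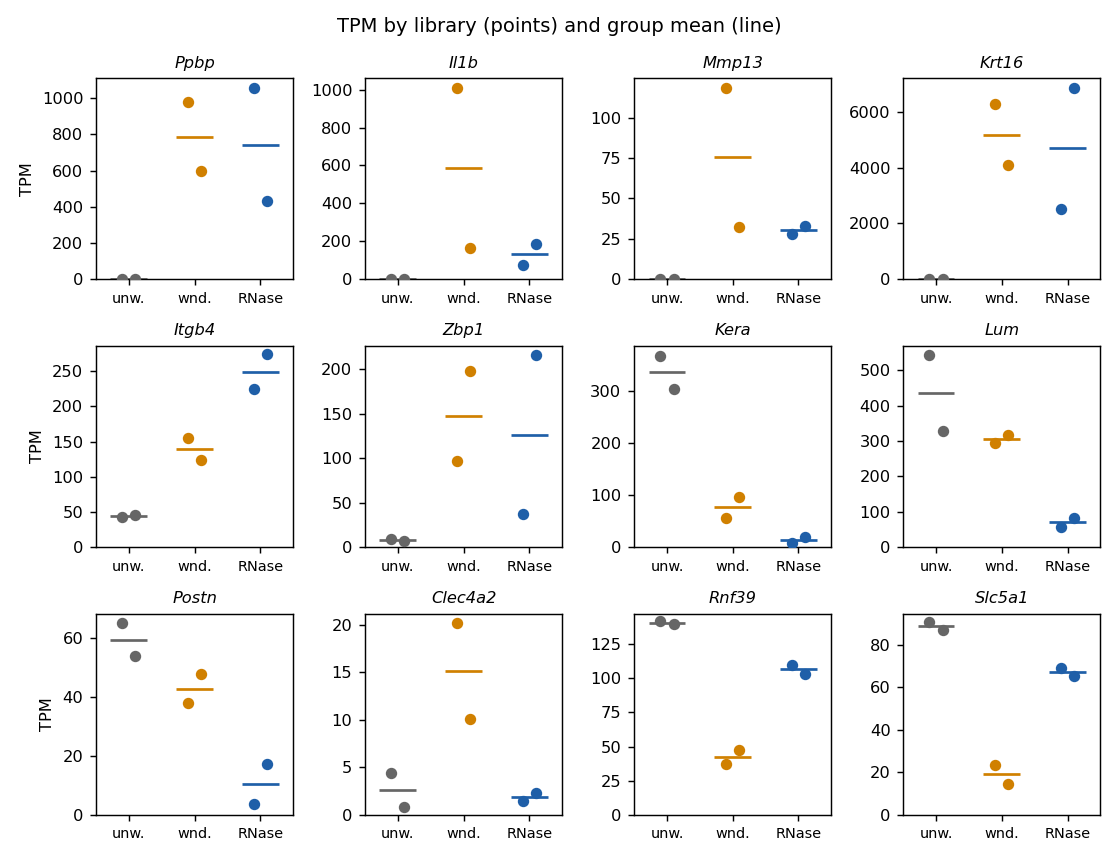
TPM (y axis, linear, from 0) of 12 genes in each library, with points for libraries and a line for the group mean, for unwounded (unw.), wounded without enzyme (wnd.) and wounded with RNase III (RNase). Ppbp, Mmp13 and Krt16 are high in both wounded groups, Lum and Postn are low with RNase III alone, and Rnf39 and Slc5a1 with RNase III lie between the other groups, nearer to unwounded.

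Genes of migrating epithelium made up the list with the highest share of rises under the enzyme. Of 24 wound-edge keratinocyte genes 18 rose and none fell, with a median of 2.12, beside 15 rises and a median of 1.80 in wounded corneas. Krt16, a keratin of stressed and regenerating epithelium (chr11:100246091-100248902), went from 10.9 and 19.3 TPM to 2520 and 6853 TPM, a rise of 8.06 ± 0.51 (adjusted p = 0.00177). Lamb3 and Lama3, laminin chains of the epithelial basement membrane, rose by 3.93 ± 0.29 (adjusted p = 0.00324) and 3.20 ± 0.26 (adjusted p = 0.00366). The integrin chain Itgb4, which holds epithelium to that membrane in hemidesmosomes, rose by 2.45 ± 0.20 (adjusted p = 0.00366). Dynap, which encodes a membrane protein that binds dynactin, went from 0.19 and 0 TPM to 135 and 136 TPM, a rise of 6.97 ± 0.39 (adjusted p = 0.00176). Sprr2h, of the small proline-rich family of close copies, had 0 TPM in unwounded replicates 1 and 2 and was at 19.4 and 12.0 TPM with RNase III (adjusted p = 0.0221). Of the 24 genes 9 had both RNase III values above both wounded values, beside 26.8% of all genes, and none had both below. Without RNase III replicate 1 the list had 12 rises, without RNase III replicate 2 it had 13, and without an unwounded library 5 or 6.

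The 10 most abundant called genes included 3 keratins, Krt14, Krt16 and Krt6a. Krt14, the keratin of basal epithelial cells, was at 540 and 425 TPM in unwounded and 8820 and 12673 TPM under RNase III, a rise of 4.46 ± 0.30 (adjusted p = 0.00235). Krt6a, a keratin of activated epithelium with a close copy, was at 3144 and 2697 TPM and reached 9194 and 11057 TPM, a rise of 1.79 ± 0.26 (adjusted p = 0.0188). The fatty acid carrier gene Fabp5 rose by 3.55 ± 0.21 (adjusted p = 0.00177), from 224 and 225 TPM to 2702 and 2574 TPM. Sfn, the epithelial 14-3-3 protein that holds the cell cycle, rose by 1.55 ± 0.21 (adjusted p = 0.0154), and Anxa1, the glucocorticoid-induced annexin that limits neutrophil entry, by 1.28 ± 0.28 (adjusted p = 0.0378). Urah, an enzyme of uric acid breakdown, rose by 2.49 ± 0.27 (adjusted p = 0.00966), and Rps2, a ribosomal protein with many processed copies, by 1.36 ± 0.28 (adjusted p = 0.0334). Lypd2, a surface protein gene of the Ly6 family, was the single abundant gene of this rule that fell, by 1.77 ± 0.43 (adjusted p = 0.0461), from 10045 and 8539 TPM to 3141 and 2333 TPM.

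The 13 limbal and basal markers had 5 rises and 2 falls (Gpha2 and Bmi1), with Krt14 the largest. Sox9, a transcription factor of progenitor cells, rose by 1.77 ± 0.26 (adjusted p = 0.0196). Ifitm3, an antiviral membrane protein that is also on the interferon list, rose by 2.80 ± 0.44 (adjusted p = 0.0223), from 157 and 159 TPM to 678 and 1816 TPM. Tfrc, the transferrin receptor, rose by 2.01 ± 0.50 (adjusted p = 0.0492).

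Genes of the cornified envelope, the crosslinked shell of skin-like epithelium, also rose. Of 14 that passed the filter 8 rose and none fell, with a median of 2.92. The list had 5 rises without RNase III replicate 1 and 1 or 0 without an unwounded library. Sprr1a went from 15.4 and 14.1 TPM to 1852 and 668 TPM, a rise of 6.15 ± 0.57 (adjusted p = 0.00619). Sprr1b rose by 5.85 ± 0.95 (adjusted p = 0.0228) and Cnfn, cornifelin, by 3.94 ± 0.52 (adjusted p = 0.0148). Sprr2f, a relative that is not on the list, rose by 6.51 ± 0.79 (adjusted p = 0.0121). Sprr2d, at 0 TPM in unwounded replicates 1 and 2, was at 16.7 and 20.7 TPM (adjusted p = 0.0291) and at 16.9 and 1.63 TPM in wounded corneas. Lce3a, a late envelope gene, did not follow them. It was at 134 and 60.7 TPM in unwounded corneas, at 10.6 and 4.13 TPM after wounding alone and at 123 and 61.2 TPM under RNase III. Its differences were -0.06 (adjusted p = 0.955) from unwounded and 3.51 (adjusted p = 0.228) from wounded corneas. Lce3a was chosen for a wound fall and a small RNase III difference, so the latter value follows from the choice.

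Antimicrobial and acute-phase genes gave the highest list median, 4.13, with 7 of 13 higher and none lower. Saa3 and Saa2, serum amyloid genes made locally in inflamed tissue and close copies of each other, had 0 TPM in unwounded replicates 1 and 2. Saa3 was at 290 and 602 TPM with RNase III (adjusted p = 0.00781) and at 2369 and 303 TPM without. Saa2 was at 43.2 and 69.5 TPM with RNase III (adjusted p = 0.0223). Lcn2, lipocalin 2, which withholds iron from bacteria, went from 6.32 and 5.52 TPM to 1061 and 474 TPM, a rise of 6.68 ± 0.87 (adjusted p = 0.0144). The list had 1 rise without RNase III replicate 1, 3 without RNase III replicate 2 and 0 without either unwounded library. Csn3, known as a milk casein gene, rose by 5.67 ± 0.31 (adjusted p = 0.00176), from 0.26 and 0.10 TPM to 53.9 and 64.8 TPM, with 38.1 and 63.3 TPM in wounded corneas.

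Markers of the mature corneal epithelium gave 1 call with RNase III. Of 14 that passed the filter 1 fell and none rose, with a median of -0.11, whereas in wounded corneas 6 fell and the median was -0.85. The sign of the RNase III median changed under median-of-ratios scaling, to 0.06, and without RNase III replicate 2, to 0.06. Krt12 had a difference of -0.46 ± 0.38 (adjusted p = 0.414), and Krt5, its usual partner keratin, one of 0.07 ± 0.27 (adjusted p = 0.875). Pax6, the master regulator of eye development, was at 340 and 361 TPM in unwounded corneas, at 51.2 and 140 TPM after wounding alone and at 168 and 182 TPM under RNase III. Its difference from unwounded was -1.0 ± 0.42 (adjusted p = 0.142) with the enzyme and -2.04 without it (adjusted p = 0.0279), and the RNase III minus wounded difference was 1.04 (adjusted p = 0.387). The called fall was Upk3b, a uroplakin, which fell by 3.21 ± 0.33 (adjusted p = 0.00841), from 9.16 and 11.8 TPM to 0.09 and 0.40 TPM. The wounded libraries without enzyme hold the same pair of values.

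A larger group, 253 genes, was called lower in wounded corneas and differed by less than 0.5 from unwounded with RNase III. Slc5a1, the sodium-glucose cotransporter SGLT1, was at 90.7 and 87.1 TPM in unwounded corneas, at 23.5 and 14.5 TPM after wounding alone and at 69.3 and 65.2 TPM under RNase III. Rnf39, a RING finger gene, was at 142 and 140, then 37.2 and 47.6, then 110 and 103 TPM in the same order. Slc44a4, which carries choline and thiamine pyrophosphate, was at 31.7 and 25.5, then 2.86 and 9.76, then 22.6 and 25.0 TPM, and Tef, a clock-output transcription factor, at 45.6 and 45.3, then 7.75 and 15.7, then 35.9 and 28.4 TPM. In each of these the RNase III libraries lay above both wounded libraries. A higher level than in wounded corneas follows from how these genes were chosen. The differences from wounded corneas were 1.81, 1.32, 1.94 and 1.45, with adjusted p of 0.211, 0.211, 0.294 and 0.294, so none of these differences was called.

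The largest falls included genes that were also called lower after wounding alone, among them the next 7. Spink7, an epithelial protease inhibitor, was at 44.0 and 14.2 TPM in unwounded corneas and listed at 0 in all 4 wounded libraries (adjusted p = 0.00967). Alox12e, an epidermal lipoxygenase, fell by 4.29 ± 0.87 (adjusted p = 0.033), from 90.1 and 72.3 TPM to 9.59 and 0.66 TPM. Ttc36 fell by 4.48 ± 0.59 (adjusted p = 0.0148), Snx31, a sorting nexin, fell by 4.22 ± 0.73 (adjusted p = 0.0251), and Necab1, a neuronal calcium-binding protein gene, fell by 3.73 ± 0.33 (adjusted p = 0.00534). Ppp1r3c, which directs a phosphatase to glycogen, fell by 3.73 ± 0.61 (adjusted p = 0.0228), and Akr1b7, an aldose reductase relative, by 3.64 ± 0.65 (adjusted p = 0.0268). Of the 30 aldehyde and glutathione detoxification enzymes 8 fell and 3 rose. The carboxylesterase gene Ces1d fell by 4.28 ± 0.59 (adjusted p = 0.0166), from 257 and 239 TPM to 19.1 and 7.18 TPM, and Adh1, alcohol dehydrogenase 1, by 2.85 ± 0.67 (adjusted p = 0.0449). Akr1b8, another aldose reductase relative, rose by 5.13 ± 0.42 (adjusted p = 0.00396), from 6.51 and 5.0 TPM to 159 and 343 TPM, and Aldh1a3, which makes retinoic acid, by 3.04 ± 0.33 (adjusted p = 0.00966). Without RNase III replicate 1 the list had 3 falls.

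Stromal genes were prominent among the falls with RNase III. Of 12 keratocyte markers 8 fell and none rose, with a median of -1.98, beside 3 falls and a median of -0.85 in wounded corneas. Kera, keratocan, a keratan sulfate proteoglycan of the corneal stroma (chr10:97606879-97613692), was at 367 and 304 TPM in unwounded corneas, at 55.7 and 95.9 TPM after wounding alone and at 7.98 and 20.0 TPM under RNase III. It fell by 4.61 ± 0.43 (adjusted p = 0.00619), and the RNase III minus wounded difference was -2.43 (adjusted p = 0.287). Its neighbour Lum, lumican, which spaces collagen fibrils (chr10:97565128-97572703), was at 544 and 327 TPM in unwounded corneas, at 294 and 316 TPM after wounding alone and at 57.6 and 82.7 TPM under RNase III. Lum fell by 2.59 ± 0.29 (adjusted p = 0.0105) with the enzyme and had a difference of -0.47 (adjusted p = 0.275) without it. Ptgds, a prostaglandin D synthase abundant in stroma, fell by 2.36 ± 0.44 (adjusted p = 0.029), and Fmod, fibromodulin, by 2.16 ± 0.46 (adjusted p = 0.0368). Summed over the markers, TPM was 7087 and 5434 in unwounded, 3510 and 3975 in wounded and 1063 and 1746 in RNase III corneas, with no overlap between the 3 groups. Without RNase III replicate 1 the list had 3 falls, and without an unwounded library 0 or 1.

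Fibrillar matrix genes were called in both directions. Of 26 genes 9 fell and 3 rose with RNase III, with a median of -1.54, whereas in wounded corneas none fell, 5 rose and the median was -0.13. For 18 of the 26, RNase III replicates 1 and 2 were below both wounded values, beside 13.4% of all genes, and for none were both above. Postn, periostin, a matricellular protein of repair, was at 65.2 and 53.9 TPM in unwounded corneas, at 37.9 and 48.1 TPM after wounding alone and at 3.62 and 17.3 TPM under RNase III. It fell by 2.71 ± 0.59 (adjusted p = 0.0374). Eln, elastin, fell by 2.62 ± 0.44 (adjusted p = 0.0233), and the fibrillar collagen chains Col5a2 and Col1a2 by 2.52 ± 0.53 (adjusted p = 0.0347) and 2.36 ± 0.58 (adjusted p = 0.0482). Col1a1, the major collagen chain, spread widely, with 257 and 220 TPM in unwounded and 6.78 and 108 TPM under RNase III, and was not called (-3.03 ± 1.05, adjusted p = 0.0942). Tnc, tenascin C, which appears in provisional matrix, rose by 2.88 ± 0.61 (adjusted p = 0.036), from 1.83 and 1.09 TPM to 11.2 and 25.4 TPM. The falls numbered 4 without either wounded library, 16 without RNase III replicate 2 and 0 without either unwounded library. The list's median over the unwounded mean was -2.34 in RNase III replicate 1 and -0.75 in replicate 2.

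**Figure D5:**
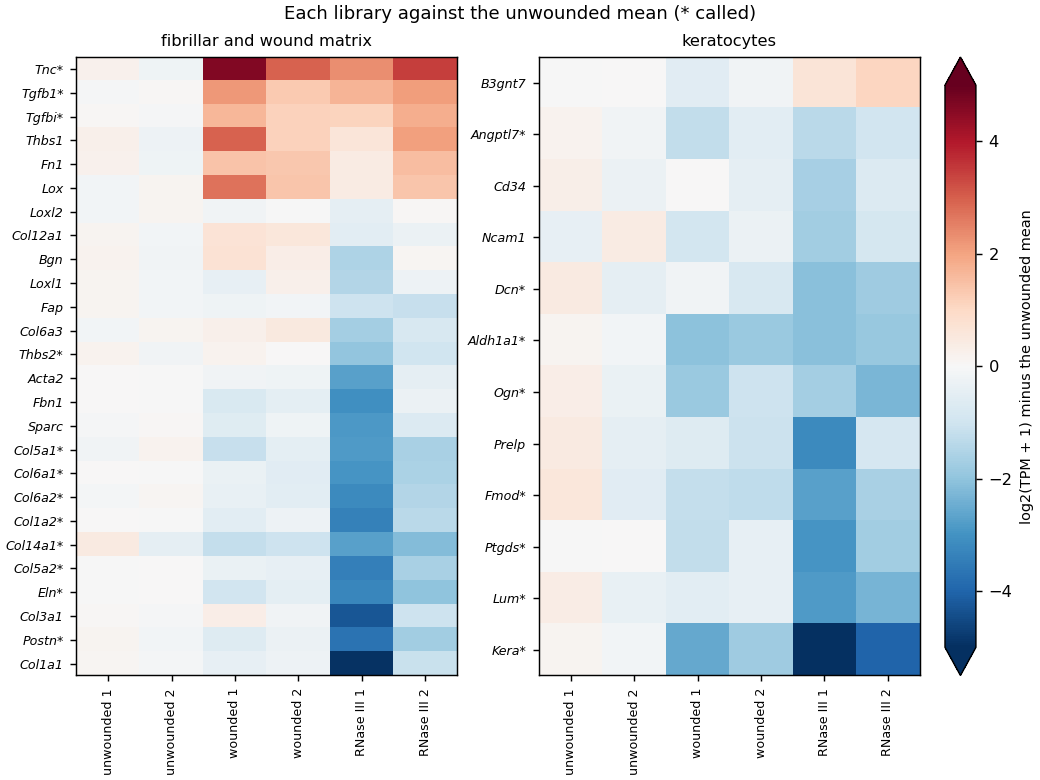
Heat maps of 26 fibrillar and wound matrix genes (left) and 12 keratocyte genes (right) in each of the 6 libraries, as log2(TPM + 1) minus the unwounded mean, with colour saturating at 5 in either direction and an asterisk on genes called in RNase III against unwounded. Tnc and Tgfb1 are higher in the 4 wounded libraries; Col1a2, Col5a2, Eln, Postn, Lum and Kera are lowest in RNase III replicate 1, and RNase III replicate 2 is also below the wounded libraries.

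Other tissues that adjoin the cornea moved with these genes. For all 12 retina and pigment cell markers the RNase III values were below both unwounded values, beside 40.3% of all genes. Of the 12 markers 3 were called (Rpe65, Rlbp1 and Tyrp1), with a list median of -3.26. A marker under 1 TPM in both RNase III libraries, such as Rpe65 (0.5 and 0.68 TPM), passed the filter only through the unwounded libraries. The calls numbered 10 with the replicate number as a block, 6 without RNase III replicate 2, 1 without either wounded library and 0 without RNase III replicate 1 or either unwounded library. Their summed TPM was 1712 and 5197 in unwounded, 508 and 1343 in wounded and 142 and 692 in RNase III corneas, and none was at 0 in all libraries. Red cell genes summed to 2391 and 6805 TPM in unwounded and 373 and 1124 TPM under RNase III, with none of 5 called; Hbb-bs and Hba-a2, globin genes with near-identical copies, differed by -2.78 ± 0.72 (adjusted p = 0.0527) and -2.51 ± 0.69 (adjusted p = 0.0597). Of 11 vessel markers 3 fell and none rose, with a median of -1.12, and the falls numbered 1 without RNase III replicate 1, 5 without RNase III replicate 2 and 0 without either unwounded library. Rgs5, a pericyte gene, fell by 3.07 ± 0.27 (adjusted p = 0.00527), and the endothelial receptors Kdr and Tek by 1.86 ± 0.36 and 1.49 ± 0.29 (adjusted p = 0.0306 for both). The vessel sum was 83.4 and 86.6 TPM in unwounded corneas, at 73.8 and 48.6 TPM after wounding alone and at 15 and 34.6 TPM under RNase III. The part of such neighbouring tissue in the stromal and matrix differences was not tested.

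Further genes among the largest falls follow. Ttr, transthyretin, which pigment epithelium makes in the eye, fell by 3.76 ± 0.59 (adjusted p = 0.0221), from 141 and 195 TPM to 5.19 and 23.4 TPM, with 93.4 and 125 TPM in wounded corneas. Tnmd, tenomodulin of tendon and ligament, fell by 3.48 ± 0.49 (adjusted p = 0.0169), Clec3b, tetranectin, by 4.31 ± 0.47 (adjusted p = 0.00981), and Tppp3, known from tendon sheath cells, by 3.47 ± 0.45 (adjusted p = 0.0144). Ccl21a, a chemokine of lymphatic vessels with near-identical copies, fell by 3.78 ± 0.36 (adjusted p = 0.00619). In wounded corneas Clec3b, Tppp3 and Ccl21a were also called lower, with differences of -3.09, -1.67 and -2.74 (limma adjusted p = 0.0165, 0.0491 and 0.0112). Ttr and Tnmd were not called there (-0.615 and -0.897, limma adjusted p = 0.472 and 0.217).

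A lens signal distinguished RNase III replicate 2. Lens markers summed to 298 and 262 TPM in unwounded corneas, at 661 and 533 TPM after wounding alone and at 260 and 5754 TPM under RNase III. Cryaa, alpha A crystallin, was at 1.07 TPM in RNase III replicate 1 and 1281 TPM in replicate 2, and was not called (adjusted p = 0.281). Of 7 lens genes that passed the filter 3 rose, which became 1 without either wounded library and 0 without either unwounded library, and the whole list of 18 had 4 genes at 0 in both unwounded libraries. Cryba4 rose by 5.03 ± 0.82 (adjusted p = 0.0228) and Bfsp1, a lens filament protein, by 2.35 ± 0.50 (adjusted p = 0.0355). Both were also called higher after wounding alone (limma adjusted p = 0.0368 and 0.0356). Cryba4 was at 37.46 and 30.54 TPM after wounding alone and at 37.15 and 278.69 TPM under RNase III. Bfsp1 was at 15.16 and 16.35, then 10.26 and 32.86 TPM in the same order. Cryga had 0 TPM in unwounded replicates 1 and 2 and was at 3.29 and 19.2 TPM with RNase III (adjusted p = 0.036).

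Of the 798 rises and 833 falls called with RNase III, 49 and 56 differed by less than 0.5 in wounded corneas, with the same kinds of genes left out. Beside Cryga, the largest rises were these. Ceacam1, a cell adhesion molecule, was at 155 and 180 TPM in unwounded corneas, at 214 and 185 TPM after wounding alone and at 669 and 548 TPM under RNase III, a rise of 1.85 ± 0.19 (adjusted p = 0.00934). Epha2, an ephrin receptor of epithelium, rose by 1.45 ± 0.16 (adjusted p = 0.0105), from 58.7 and 61.9 TPM to 163 and 169 TPM, with 79.0 and 82.9 TPM in wounded corneas. Pglyrp4, which binds bacterial peptidoglycan, rose by 1.85 ± 0.24 (adjusted p = 0.0144), Klk13, a secreted kallikrein protease, by 1.95 ± 0.34 (adjusted p = 0.0255), and Trim40, a ubiquitin ligase, by 1.83 ± 0.34 (adjusted p = 0.0284). Their differences from wounded corneas ran from 1.03 to 1.76, with adjusted p of 0.211 for Ceacam1, 0.228 for Epha2, 0.215 for Pglyrp4, 0.289 for Klk13 and 0.294 for Trim40. The largest falls of this kind were Postn, Lum, Col5a2, Col1a2, Igfbp6, a binding protein of insulin-like growth factors, and Cpxm1, an inactive carboxypeptidase. Igfbp6 was at 54.3 and 24.5 TPM in unwounded corneas, at 35.1 and 19.6 TPM after wounding alone and at 4.62 and 6.87 TPM under RNase III, and Cpxm1 at 14.8 and 10.8, then 8.35 and 10.7, then 1.25 and 1.76 TPM. Their differences from wounded corneas were -2.03 (adjusted p = 0.294) and -2.07 (adjusted p = 0.215). Those of Postn, Lum, Col5a2 and Col1a2 were -2.25, -2.13, -2.16 and -1.98 (adjusted p = 0.295, 0.211, 0.294 and 0.315). The genes of this group were chosen for a large RNase III difference and a small wound difference. Their differences from wounded corneas, in both directions, therefore follow from the choice, and none was called.

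Further proteases and their inhibitors were called beside Mmp13. Of 14 matrix metalloproteinases that passed the filter 4 rose and 1 fell (Mmp23), with a median of 1.02. Mmp12, macrophage elastase, rose by 4.61 ± 1.11 (adjusted p = 0.0461), from 1.11 and 0.66 TPM to 17.0 and 116 TPM. Mmp10, stromelysin 2 of migrating epithelium, rose by 2.76 ± 0.49 (adjusted p = 0.0263), and Mmp9, gelatinase B, by 2.64 ± 0.45 (adjusted p = 0.0251). The list had 1 rise without either RNase III library and 0 without either unwounded library. Of 14 genes of protease inhibitors and the plasminogen system 6 rose and 2 fell (Timp2 and Timp3). Timp1, the metalloproteinase inhibitor, rose by 5.58 ± 0.80 (adjusted p = 0.018), from 7.08 and 4.75 TPM to 165 and 639 TPM, with 1994 and 481 TPM in wounded corneas. Plaur, the urokinase receptor, rose by 5.11 ± 0.48 (adjusted p = 0.00619) and its ligand Plau by 3.0 ± 0.39 (adjusted p = 0.0144).

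Proliferation genes had positive differences throughout. Of 26 genes 9 rose, with a median of 1.08, beside 3 rises and a median of 0.74 in wounded corneas. Mcm3, a subunit of the replicative helicase, went from 11.7 and 12.2 TPM to 54.5 and 64.9 TPM, a rise of 2.23 ± 0.35 (adjusted p = 0.0219). Mcm5 and Mcm2, further subunits, rose by 1.91 ± 0.41 (adjusted p = 0.0375) and 1.80 ± 0.42 (adjusted p = 0.0428). Rrm2, which supplies deoxynucleotides, rose by 1.87 ± 0.29 (adjusted p = 0.022). The calls numbered 18 under median-of-ratios scaling, 6 without RNase III replicate 1 and 0 without RNase III replicate 2 or either unwounded library.

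Stress-induced transcription factors and chaperones rose in part. Of 16 immediate early and heat shock genes 6 rose and 1 fell (Fosl2). Fosl1, the AP-1 member of migrating epithelium, rose by 4.88 ± 0.30 (adjusted p = 0.00177), from 0.26 and 0.34 TPM to 41.0 and 34.0 TPM. Egr1, Myc and Jun rose by 2.59 ± 0.35, 2.47 ± 0.44 and 1.77 ± 0.39 (adjusted p = 0.0148, 0.0268 and 0.0397). Of 18 genes of the unfolded protein response 6 rose and none fell, with a median of 0.58. Asns, asparagine synthetase, rose by 2.66 ± 0.44 (adjusted p = 0.0238), and the folding factors Creld2, Hspa5 and Manf by 1.10 ± 0.21, 1.05 ± 0.17 and 1.02 ± 0.22 (adjusted p = 0.0306, 0.0233 and 0.0375). Without RNase III replicate 2 the list had 2 rises.

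Glycolysis genes were called higher, and none of the 23 listed nuclear respiratory chain genes was called. Of 23 glycolysis and pentose phosphate genes 12 rose and 1 fell (Tkt), with a median of 0.88. Slc16a3, the lactate exporter MCT4, rose by 3.50 ± 0.79 (adjusted p = 0.041), from 1.73 and 6.00 TPM to 33.5 and 70.2 TPM. Pkm, Pgk1 and Pgam1, enzymes of lower glycolysis, rose by 1.98 ± 0.26, 1.82 ± 0.22 and 1.76 ± 0.22 (adjusted p = 0.0144, 0.0117 and 0.0129). Gapdh, often used as a reference gene, was at 893 and 1086 TPM in unwounded and 2715 and 3101 TPM under RNase III, a rise of 1.56 ± 0.22 (adjusted p = 0.0183). The 23 nuclear respiratory chain genes had no call (the most abundant, Ndufa4 and Atp5b, differed by -0.11 and -0.16, adjusted p = 0.801 and 0.657). Their median was -0.05 and became 0.11 under median-of-ratios scaling and 0.02 without RNase III replicate 1. Among 16 citrate cycle genes Mdh2 rose by 0.82 ± 0.18 (adjusted p = 0.0409) and the cytosolic Mdh1 fell by 1.14 ± 0.26 (adjusted p = 0.0406). Of 23 genes of fatty acid oxidation and peroxisomes 22 had a negative difference and 3 fell, with a median of -0.65; the falls numbered 6 or 5 without a wounded library, 1 without RNase III replicate 1 and 2 without RNase III replicate 2. These were Ppara, the receptor that drives the pathway, by 1.73 ± 0.36 (adjusted p = 0.0345), Cpt1a, which admits fatty acids to mitochondria, by 1.66 ± 0.32 (adjusted p = 0.0306), and Acaa2, the last thiolase, by 1.41 ± 0.24 (adjusted p = 0.0251).

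Lipid mediators, cholesterol and clock genes completed the lists. Among 12 lipoxygenase and prostaglandin genes Ptgs2, cyclooxygenase 2, rose by 3.26 ± 0.44 (adjusted p = 0.0158) and Ptges, which makes prostaglandin E2, by 2.80 ± 0.49 (adjusted p = 0.0257), while 5 fell, or 2 without either RNase III library. Hpgd, which degrades prostaglandins, fell by 2.46 ± 0.41 (adjusted p = 0.0238). None of 21 cholesterol genes was called, with a median of 0.21 beside -0.47 in wounded corneas, and 13 of the 21 lay above both wounded libraries in both RNase III libraries, beside 26.8% of all genes. Fdps, a synthase of the pathway, differed from unwounded by 0.18 (adjusted p = 0.688). Of 15 circadian clock genes 1 rose and 2 fell, beside 6 falls in wounded corneas. Arntl, the core activator BMAL1, fell by 1.75 ± 0.29 (adjusted p = 0.0238) and Hlf, a clock-output factor, by 2.06 ± 0.45 (adjusted p = 0.0382), while the repressor Bhlhe40 rose by 1.02 ± 0.20 (adjusted p = 0.0309). Sampling times of day were not given in the labels used here.

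Lists of growth factor signalling and antigen presentation follow. Over all genes 5.6% were called higher and 5.85% lower. Of 21 TGF-beta and BMP genes 3 rose and 1 fell. Inhba, the activin A subunit, rose by 2.52 ± 0.62 (adjusted p = 0.0482), Tgfb1 by 1.90 ± 0.31 (adjusted p = 0.0228) and the signal carrier Smad3 by 1.16 ± 0.21 (adjusted p = 0.0284), while Tgfb3 fell by 1.85 ± 0.43 (adjusted p = 0.0437). The list had 0 rises and 3 falls without RNase III replicate 2. Of 16 genes of MHC presentation 1 rose (Nlrc5), beside 4 in wounded corneas. The list had 5 rises without RNase III replicate 1, and its median went from 0.19 to -0.10 without RNase III replicate 2. B2m, the light chain of MHC class I, was at 394 and 334 TPM in unwounded corneas, at 1201 and 1248 TPM after wounding alone and at 349 and 766 TPM under RNase III, with a difference of 0.51 ± 0.36 (adjusted p = 0.339) from unwounded and -1.24 (adjusted p = 0.313) from wounded corneas. H2-D1, a class I heavy chain, had a difference of 0.48 ± 0.20 (adjusted p = 0.133).

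Remaining cell type lists were short, so their calls with RNase III are set beside 5.6% of all genes called higher and 5.85% lower. Of 9 corneal endothelium markers Col8a2 alone was called, lower, and Aqp1, a water channel gene, differed by -0.26 (adjusted p = 0.401). Among 6 conjunctival and goblet cell genes Krt18 was called, higher, while Krt13 and Krt4 differed by -0.71 (adjusted p = 0.36) and -1.38 (adjusted p = 0.154). Of 10 nerve and Schwann cell genes S100b was called, lower, and Erbb3 and Mbp differed by -0.56 (adjusted p = 0.109) and -0.33 (adjusted p = 0.258), beside -1.34 and -1.10 in wounded corneas (adjusted p = 0.0168 and 0.0198). Mcpt4 was the 1 call, lower, of 6 mast cell genes. The mast cell receptor Kit differed by -1.83 (adjusted p = 0.0529) and Hdc, which makes histamine, by 3.94 (adjusted p = 0.0586). Lymphocyte genes were near absence, with 2 of 16 passing the filter and a summed TPM between 2.9 and 8.0 in each library; Cd79b of B cells and Trbc2 of T cells differed by -1.12 and 1.07 (adjusted p = 0.0548 and 0.0626). Muscle and lacrimal gland lists had 3 and 2 genes that passed the filter, and Amy1 of the latter fell by 2.10 ± 0.37 (adjusted p = 0.0257). Lyz1, Tnni2 and Mylpf differed by 0.04, -0.43 and -1.03 (adjusted p = 0.969, 0.555 and 0.492).

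Hist2h2aa2, a replication-dependent histone, was 1 of the called genes for which both RNase III libraries were listed at 0. It was at 29.4 and 14.0 TPM in unwounded and 44.3 and 23.2 TPM in wounded corneas (adjusted p = 0.00798 against unwounded and 0.108 against wounded corneas, the smallest of that comparison). It has a close copy, and reads may be split between the copies.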

How the data were processed

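The deposited table holds TPM values for 54446 gene rows in 6 corneal libraries; per the submitters' processing notes, STAR, RSEM, DESeq2 and the mm10 build were used, with no role or version stated. TPM sums to the same total in each library, so depth is unknown. Of the rows, 54409 matched a symbol and a GENCODE M21 position.

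All 6 libraries were fitted by group means with limma 3.58.1 (R 4.3.3) on log2(TPM + 1), with a mean-variance trend, 3 residual degrees of freedom and p-values (two-sided) adjusted by Benjamini-Hochberg over the 14251 genes at 1 TPM or more in at least 2 of the 4 libraries compared. A gene was called at an adjusted p under 0.05. The fit was tested on simulated libraries with 200 changed genes. It found 25% of 2-fold and 93% of 4-fold changes, with a mean of 6.2 false calls. The simulated spread was set by level alone and equal in all groups, and fewer genes changed than were called here. These shares may therefore differ in the real libraries. Median-of-ratios factors, another pseudocount (0.1), other filters, other fits and each library left out were tried.

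The members and gene lists were chosen with earlier results of these data known, so list counts are descriptions. Named genes were Ifnb1, Mmp13 and Tlr3; the 15 largest called rises and 15 falls, without predicted genes, pseudogenes and receptor segments; up to 4 called members of each list, or its 2 most abundant where fewer than 2 were called; the genes with a difference under 0.5 in 1 of the comparisons, up to 6 each way; and the 10 most abundant called genes. Col1a1, Pax6, Cryaa, Lamb3, Lama3, Itgb4 and the genes named in brackets were chosen after their values were seen. Promoters (RefSeq, GRCm38.p6) were printed for the called interferon-stimulated and chemokine genes with the largest rise and a motif match. A few genes that the rule names are not reported here.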

Additional observations from a re-analysis of the deposited data

How the results depend on the processing

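All 798 rises and 833 falls with RNase III kept their direction under each setting tried. The libraries of each called gene did not overlap, so among these settings only the rescaling of libraries could have changed it. The number called depended on the filter and on single libraries. With no filter on low values 44 genes rose and 25 fell with RNase III, 179 and 265 after wounding alone, and 63 of the RNase III calls were shared, where the main counts are 798, 833, 922, 1561 and 1081. Median-of-ratios scaling gave 1321 rises with RNase III and 1574 after wounding alone, where rises then made up 58.8% of calls in place of 37.1%. Leaving out 1 library in turn gave 24 to 725 rises and 5 to 753 falls with RNase III, 22 to 1318 rises and 3 to 2118 falls after wounding alone, and 19 to 942 shared calls. The lowest of each came without an unwounded library, and without wounded replicate 1 wounding alone had 66 rises and 45 falls and 105 calls were shared. Against wounded corneas, 1 gene was lower with a pseudocount of 0.1, and 0 to 14 were lower when 1 library was left out (14 without RNase III replicate 2, 1 without wounded replicate 1). The cause was not tested. With the replicate number as a block there were 735 rises and 1155 falls with RNase III, 770 and 1604 after wounding alone, 1169 shared calls and 0 against wounded corneas in either direction. Deviations of same-numbered libraries correlated at 0.122 (unwounded and RNase III), 0.141 (unwounded and wounded) and -0.0941 (wounded and RNase III), over 2 numbers, so the samples share only a number and the pairing is not established. For named genes called in either of the fits compared, no direction reversed. For those called in the main fit this too was fixed by the lack of overlap, except under rescaling. A change of sign in a gene called in neither fit was not counted. Many results of named genes lost the call when 1 library was left out, and 178 did so under other settings. A fit of only 4 libraries has no value for wounded corneas. TPM keeps no depth, so low genes carry an unknown counting error.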

Other observations

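Families grouped by the stem of their symbols were looked at after the values were seen, without a test of the family. Of 8 schlafen genes (Slfn), interferon-responsive regulators of immune cells in mice, 4 rose under RNase III (Slfn1, Slfn2, Slfn3 and Slfn4) and none fell, with a median of 1.95 beside 1.83 after wounding alone. Of 8 Nop genes, whose proteins act in ribosome assembly in the nucleolus, 4 rose (Nop2, Nop16, Nop56 and Nop58), with a median of 0.96. Of 14 genes of the tumour necrosis factor receptor superfamily (Tnfrsf) 4 rose and none fell, with a median of 1.47. Among 12 Wnt ligands 1 rose (Wnt9a) and 4 fell (Wnt2, Wnt2b, Wnt6 and Wnt11), with a median of -0.88. Of 28 cytochrome P450 genes 6 fell and none rose, with a median of -0.77, and Cyp4a12a and Cyp4a12b among them are close copies. The median over all genes tested was -0.17 with RNase III and -0.28 after wounding alone. Over all genes 5.6% were called higher and 5.85% lower with RNase III. After wounding alone 5 Slfn, 4 Nop and 5 Tnfrsf genes were called higher. There 1 Wnt gene was called higher and 3 lower, and 9 cytochrome P450 genes lower. Further stems looked at were Zkscan (3 of 10 fell with RNase III), Tubb (2 of 7 rose) and Itga (3 of 9 rose).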
